A study of Mus musculus with 15 samples.

Results

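The 9 genes described here, Bach2, Satb1, Foxo1, Foxp1, Klf2, Lef1, Id2, Id3 and Ets1, encode transcription factors that are known for holding T cells in a resting state or for shaping how they leave it. They were named with earlier results of these data known, and they are 9 of the 19752 genes measured. Each was read through a transcript cluster of the array annotated to that gene alone. Every member had 1 such cluster, and no cluster named a member together with another gene. The study asked what the Notch receptor does inside regulatory T cells (Treg), the CD4 T cells that restrain immune responses and depend on the transcription factor Foxp3.

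All 15 arrays carried RNA of splenic Treg from 6-week-old male mice. The control group (4 arrays) was Foxp3EGFPCre, in which Cre recombinase and a green fluorescent protein are made under the control of Foxp3. This construct was present in all 4 groups. The N1c group (4 arrays) was Foxp3EGFPCreR26N1c/N1c and carried, in addition, the N1c allele at R26 on both chromosomes, an active intracellular form of Notch1 that Cre switches on. The RBPJdel group (4 arrays) was Foxp3EGFPCreRBPJ∆/∆ and lost RBPJ, the DNA-binding partner of active Notch, where Cre was active. The N1c_RBPJdel group (3 arrays) carried all of these alleles, Foxp3EGFPCreR26N1c/N1cRBPJ∆/∆. Since Cre is driven by Foxp3, both changes are limited to cells that make or have made Foxp3, and a cell in which Cre did not act is sorted with the others. The sort took CD3+ TCRbeta+ CD4+ GFP+ cells negative for CD8, B220, CD11b, CD11c and Gr1, with mice pooled before it, and 40000 to 50000 cells went into an RNA sample. A MoFlo served for control, N1c and RBPJdel and a FACSAria for N1c_RBPJdel, so sorter and genotype cannot be told apart in comparisons with the latter.

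Resting T cells stay small and outside the cell cycle because such factors keep genes for survival and recirculation on and effector genes off. Foxo1 is held out of the nucleus when antigen and growth signals activate the kinase Akt, and while nuclear it maintains Il7r and Klf2. Klf2 in turn maintains S1pr1, the receptor with which T cells leave lymphoid organs. Bach2 occupies sites that AP-1 factors would use to drive effector genes, and Treg need it to remain stable. Satb1 folds chromatin and is repressed by Foxp3 in Treg, Lef1 is the nuclear partner of beta-catenin and a relative of Tcf7, and Ets1 supports Foxp3 transcription. Id2 and Id3 bind E proteins and keep them from DNA. Id2 is known from effector-like cells and Id3 from resting ones. After cleavage, active Notch1 enters the nucleus, where RBPJ carries it to DNA. A Notch1 effect on a gene may pass through RBPJ or not, and the N1c_RBPJdel group is the comparison that bears on it.

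Values are array intensities on a linear scale after the authors' normalization. A log2 change is the difference of group means of log2 intensity, fitted with limma over all 15 arrays. Changes carry their standard error (SE), and p-values were adjusted by Benjamini-Hochberg over all 19752 genes with a threshold of 0.05. Levels are not set against each other between genes, since each gene has its own probes. In bulk samples, fewer cells with a transcript and less transcript per cell cannot be told apart.

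In Treg with active Notch1, Id2 and Lef1 rose and Bach2 fell against the control, and the other 6 members did not pass the test. With the replicate number as a block over all groups Satb1 passed too (limma adjusted p = 0.0424). With this block in N1c and control alone neither Satb1 (0.0901) nor the Lef1 rise (0.0785) passed. The Lef1 rise was absent where Rbpj was deleted as well, and the difference between the N1c effects with and without Rbpj was called for Lef1. That call was lost in 12 of 23 alternatives. Against control, the Id2 rise and the lower Bach2 were present in N1c_RBPJdel too. Against RBPJdel, the Id2 change in N1c_RBPJdel did not pass (limma adjusted p = 0.0891). The Bach2 fall against RBPJdel passed (0.0119) and was lost in 3 of 25 alternatives. In N1c_RBPJdel Satb1, Foxo1, Ets1 and Foxp1 also fell against the control, Satb1 by more than 2-fold. Deletion of Rbpj alone changed no member past the threshold, and Klf2 and Id3 passed it in no comparison.

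The engineered genes were read first. Rbpj, at a geometric mean of 497 in control and 521 in N1c, fell in RBPJdel to 267 and in N1c_RBPJdel to 209 (log2 change against control -0.90 ± 0.12 and -1.25 ± 0.13 SE, limma adjusted p = 0.00212 and 0.000124). These are values of the brightest of its features, and with the mean of its features the change in RBPJdel was -0.41 and did not pass (adjusted p = 0.320). The Notch1 cluster read 1227, 1252, 1326 and 1008 in control, N1c, RBPJdel and N1c_RBPJdel and does not show the transgene separately from the endogenous gene. Foxp3, the defining gene of the sort, read 4979, 4342, 5333 and 4220, and no comparison of it passed. The summed intensity of 8 Treg and T cell identity genes ranged from 28780 to 37100 over the 15 arrays. N1c_RBPJdel arrays 1 and 3 had the lowest upper quartiles of all arrays (330 and 325, against 340 to 385 on the other 13), and array 2 of that group lay at 366. The 6 erythroid marker genes summed to 604 to 1437 in N1c_RBPJdel and to 420 to 519 in the other 12 arrays, with Car1 at 852, 400 and 137 on arrays 1, 2 and 3; 2 of the 6 passed against control. The 7 neutrophil markers (467 to 579, against 344 to 440) did not overlap the other groups either (2 passed), and the 8 B cell markers summed to 769 to 1071, against 638 to 756 in control and N1c and 764 to 899 in RBPJdel (3 passed). The 5 CD8 T cell markers, of which Ccl5 passed, summed to 2768 to 4067, against 1159 to 1472 in control and 2130 to 3691 in RBPJdel. Array intensities do not reach 0, so no marker was at 0. The part of these differences in the N1c_RBPJdel results was not tested. In N1c, where Lef1, Id2 and Bach2 moved, the myeloid sum was higher than in control (1004 to 1096 against 638 to 834). So was the NK sum (333 to 467 against 240 to 305), and the CD8 sum was lower (936 to 1058 against 1159 to 1472). Of these genes 1 of 7 myeloid and 2 of 6 NK passed higher, and 1 of 5 CD8 lower. The list medians were 0.03, 0.06 and -0.02, so these sums do not describe the lists as a whole. The erythroid, neutrophil and B cell sums overlapped those of control. The part of the first 3 sums was not tested.

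The letters GTGGGAA are the core of the sequence that RBPJ is known to bind, and they were looked for on both strands in the RefSeq windows (GRCm38.p6) from 250 bases before to 50 bases after annotated starts. Of 32851 such windows 6.38% held them, and of 27025 genes 7.25% did. The members other than Ets1 had 17 windows in all, and 2 of these 8 genes, Lef1 and Satb1, had a match. The only Bach2 window was at a start at 32417435, inside the gene. The gene begins at 32238413, and the sequence there was not searched. The shorter TGGGAA, which every GTGGGAA contains, was in 25.6% of all windows and 28.3% of genes and in windows of 3 members, Lef1, Satb1 and Foxp1. The matches of Lef1 and Satb1 are shown. For Lef1 the difference between the N1c effects with and without Rbpj was called, a call lost in 12 of 23 alternatives. Satb1 is the member that fell furthest. Capitals mark the match.
Lef1, chr3:131110317-131110346, plus strand: cgcggcgaggagaagcgGTGGGAAggcgca
Satb1, chr17:51812106-51812135, minus strand: ctcctccctacTTCCCACtctcccctcctc
The Lef1 match begins 37 bases after the annotated start at 131110297 and runs in the direction of the gene. The Satb1 match begins 70 bases before a start at 51812054, which is 1 of 5 annotated starts of Satb1, and lies on the opposite strand. For the other gene that rose in N1c, Id2, no window held either motif. The 120 bases before the Lef1 and Id2 starts are given for comparison, and neither stretch holds GTGGGAA.
Lef1, chr3:131110177-131110296, plus strand: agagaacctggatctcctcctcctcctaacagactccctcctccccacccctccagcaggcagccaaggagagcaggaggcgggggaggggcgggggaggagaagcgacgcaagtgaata
Id2, chr12:25096093-25096212, minus strand: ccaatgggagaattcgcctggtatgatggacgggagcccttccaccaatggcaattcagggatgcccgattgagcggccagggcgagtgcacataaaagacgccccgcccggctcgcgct
These arrays do not measure binding, so a match is a description of the letters alone.

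Lef1 (transcript cluster 10496091, chr3:131110297-131224357) gives naive T cells and Treg part of their self-renewing character. Its intensity was 2393, 2291, 2137 and 2657 on control arrays 2, 3, 4 and 5, and 3253, 2928, 2938 and 3705 on N1c arrays 1, 2, 4 and 5. In RBPJdel it was 2474, 2400, 2278 and 2185 on arrays 1 to 4, and in N1c_RBPJdel 1856, 2202 and 1866 on arrays 1 to 3. All 4 N1c arrays lay above all 11 others, and the other 3 groups overlapped each other. Lef1 rose in N1c 1.35-fold against control (log2 change 0.43 ± 0.10 SE, limma adjusted p = 0.0357) and fell in N1c_RBPJdel against N1c by 0.70 ± 0.11 (adjusted p = 0.000872). In the Rbpj-deleted background the change from RBPJdel to N1c_RBPJdel was -0.24 ± 0.11 (adjusted p = 0.211). The interaction, which is this N1c effect with Rbpj deleted minus the N1c effect with Rbpj intact, was -0.68 ± 0.15 (adjusted p = 0.0410), and Lef1 was the only member called in it. RBPJdel did not differ detectably from control (-0.02, 95% interval -0.23 to 0.20).

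The size of the Lef1 rise held better than its call. It ranged from 0.36 to 0.44 where the call was lost, which happened without N1c array 1 (adjusted p = 0.0982) or 5 (0.119), without RBPJdel array 3 (0.0546), without control arrays 2 (0.0944), 3 (0.119) or 4 (0.152), and with the N1c and control arrays fitted alone, without (0.0855) or with (0.0785) the replicate number as a block. The interaction was lost after quantile normalization (-0.55, 0.115), with N1c_RBPJdel array 2 alone standing for its group (-0.52, 0.215), and without N1c_RBPJdel array 1 (0.105) or 3 (0.0765), N1c array 1 (0.0829) or 5 (0.0553), RBPJdel arrays 1 (0.0926), 2 (0.0886) or 3 (0.0787), and control arrays 2 (0.0723), 3 (0.0793) or 4 (0.0943). The fall from N1c to N1c_RBPJdel was lost with array 2 alone (-0.54, 0.0610) and with the replicate number as a block in the 2 groups alone (-0.61, 0.149).

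Id2 (cluster 10399691, chr12:25093799-25096092) encodes the inhibitor of E proteins that effector lymphocytes carry. It read 717, 714, 882 and 1012 on control arrays 2, 3, 4 and 5. On the N1c arrays it read 1658, 1163, 1357 and 1543. RBPJdel gave 895, 890, 1128 and 1051, and N1c_RBPJdel gave 1237, 1460 and 1393. The 7 arrays with active Notch1 thus lay above the 8 arrays without it, whether Rbpj was intact or deleted. Id2 rose 1.72-fold in N1c (log2 change 0.79 ± 0.13, limma adjusted p = 0.00290) and 1.65-fold in N1c_RBPJdel against control (0.73 ± 0.14, adjusted p = 0.00812). Both calls held under each alternative run, in N1c with limma adjusted p from 0.000361 to 0.0244. In N1c_RBPJdel the adjusted p was 0.0408 with the 2 groups alone. The replicate block in these 2 groups gave every member the same SE, 0.1957, so its p-value does not measure the spread of Id2. Against RBPJdel, N1c_RBPJdel was higher without overlap, but the change of 0.46 ± 0.14 did not pass (limma adjusted p = 0.0891). It passed after quantile normalization (0.59, 0.0457) and with the replicate number as a block over all groups (0.49, 0.0330). N1c_RBPJdel and N1c could not be told apart (-0.06, 95% interval -0.36 to 0.25). The interaction of -0.32 had an interval of -0.74 to 0.09.

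Id3 (cluster 10509163, chr4:136143822-136145392), the paralog that marks resting lymphocytes, showed the widest spread within a group. Its intensity was 368, 448, 322 and 368 in control, 524, 369, 351 and 288 in N1c, and 480, 356, 378 and 397 in RBPJdel. The N1c_RBPJdel arrays read 202, 426 and 246, so arrays 1 and 3 were the lowest of all 15 and array 2 lay among the other groups. The change in N1c was 0.00 ± 0.20, and that of N1c_RBPJdel against control was -0.43 ± 0.22 (limma adjusted p = 0.215). Without N1c_RBPJdel array 2 the latter became -0.75 and was called (adjusted p = 0.0196), as were those against N1c (-0.75, 0.0182) and RBPJdel (-0.84, 0.0163). The difference seen in Id3 therefore rests on the arrays with the lowest upper quartiles.

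**Figure D1:**
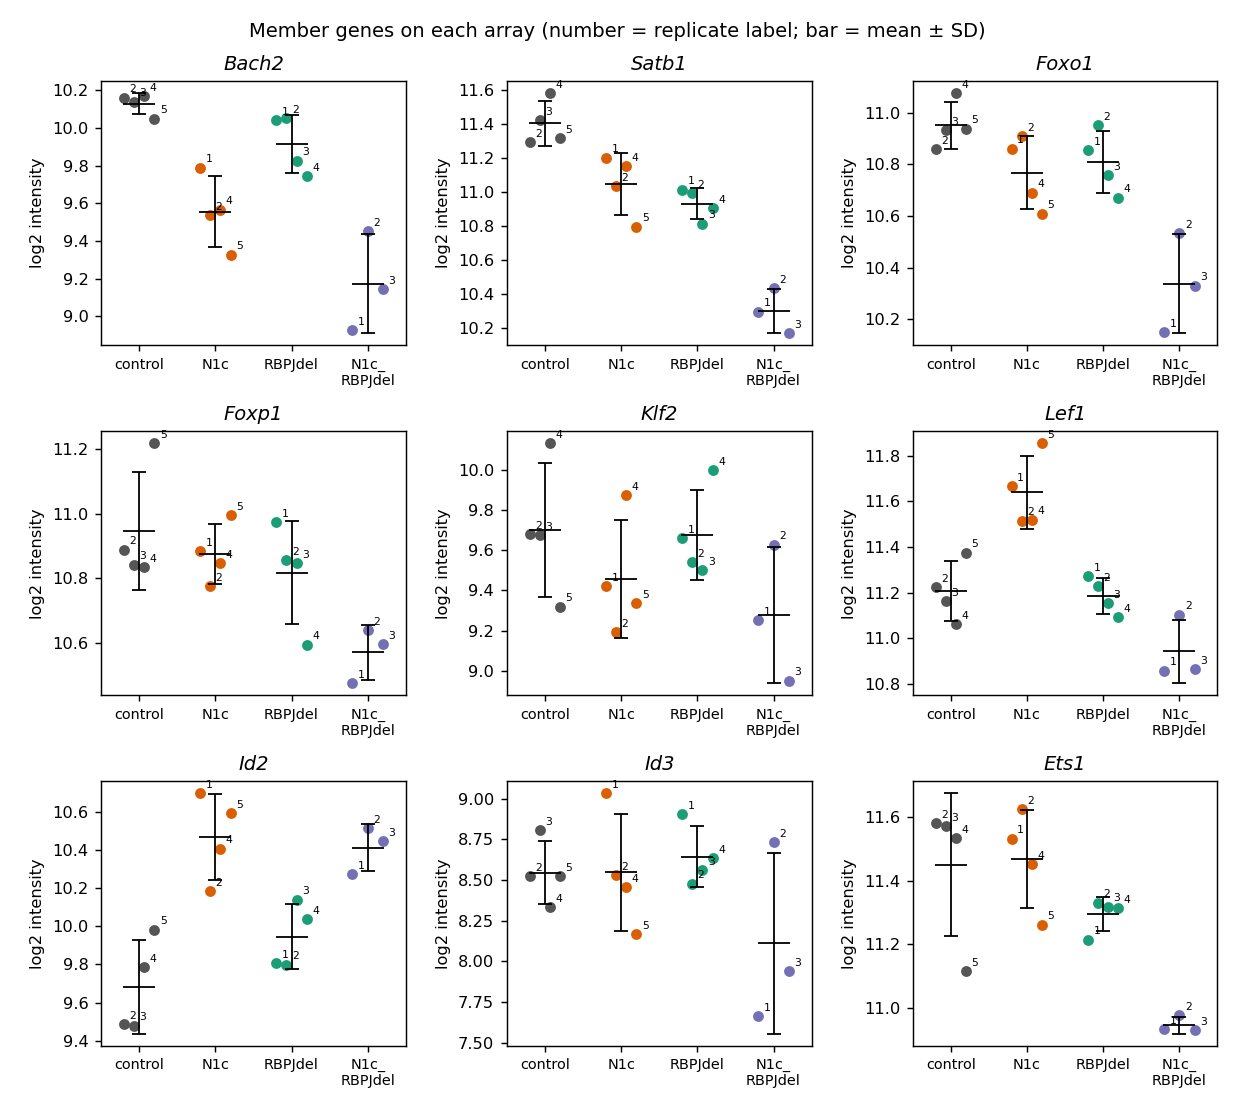
Log2 intensity (vertical axis) of the 9 members on each of the 15 arrays, 1 panel per gene, with points for arrays, numbers for the replicate labels and bars for the group mean ± SD. The 4 N1c arrays of Lef1 lie above all others, the 7 arrays with active Notch1 lie highest for Id2, and the 3 N1c_RBPJdel arrays lie lowest for Satb1, Foxo1 and Ets1.

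Bach2 (cluster 10503695, chr4:32238413-32586109) represses effector genes and, in B cells and T cells alike, opposes Prdm1. It read 1146, 1129, 1151 and 1059 on control arrays 2, 3, 4 and 5, the tightest group of the series for this gene (SD 0.06 on the log2 scale). The N1c arrays read 885, 743, 758 and 642, all below every control array. RBPJdel read 1053, 1062, 908 and 858 and overlapped control through its array 2, and N1c_RBPJdel read 486, 699.7 and 566. Bach2 fell in N1c by 0.58 ± 0.12 (1.49-fold, limma adjusted p = 0.0156) and in N1c_RBPJdel by 0.96 ± 0.13 against control (1.94-fold, adjusted p = 0.00116). It also fell from RBPJdel to N1c_RBPJdel, by 0.74 ± 0.13 (adjusted p = 0.0119). The order of the levels was control, RBPJdel, N1c and N1c_RBPJdel, and the neighbours control and RBPJdel (-0.21, adjusted p = 0.800) and N1c and N1c_RBPJdel (-0.38, 0.0725) were not separated by the test.

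The interaction for Bach2 was -0.17 (95% interval -0.54 to 0.20), so a difference between the N1c effects with and without Rbpj was not detected. The fall in N1c lost its call without N1c array 5 (-0.50, adjusted p = 0.0601) and without control arrays 2 (0.0548), 3 (0.0521) or 4 (0.0573). The fall against RBPJdel lost it without N1c_RBPJdel array 1 (-0.62, 0.0597), with array 2 alone (-0.47, 0.163) and with the 2 groups fitted alone (0.0517). The difference from N1c was called without N1c_RBPJdel array 2 (-0.52, 0.0149), without N1c array 5 (-0.46, 0.0328) and with weighted arrays (-0.48, 0.0437). It was also called with the replicate number as a block over all groups (-0.44, limma adjusted p = 0.0336). The call of N1c_RBPJdel against control held under each alternative. Among these, the replicate block in the 2 groups alone gave every member the same SE, 0.1957, so its p-value does not measure the spread of Bach2.

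Satb1 (cluster 10451763, chr17:51736187-51833290) organises chromatin loops in T cells and is normally kept low in Treg. Its intensities were 2510, 2743, 3062 and 2551 in control, 2356, 2097, 2274 and 1780 in N1c, 2065, 2036, 1801 and 1918 in RBPJdel, and 1259, 1384 and 1155 in N1c_RBPJdel. Control lay above N1c and above RBPJdel without overlap, and N1c_RBPJdel lay below all 12 others. Satb1 fell in N1c_RBPJdel by 1.10 ± 0.11 against control (2.15-fold, limma adjusted p = 9.9e-05), by 0.74 ± 0.11 against N1c (adjusted p = 0.000614) and by 0.63 ± 0.11 against RBPJdel (adjusted p = 0.0122). The changes in the 2 single mutants were -0.36 ± 0.10 in N1c (adjusted p = 0.127) and -0.47 ± 0.10 in RBPJdel (0.159), and neither passed. That in N1c was called after quantile normalization (-0.37, 0.0487) and with the replicate number as a block over all groups (-0.40, 0.0424), not with this block over N1c and control alone (-0.40, 0.0901); that in RBPJdel was called with weighted arrays (-0.47, 0.00692). The interaction was -0.27 (95% interval -0.60 to 0.05). The call against control held under each alternative. Among these, the replicate block in the 2 groups alone gave every member the same SE, 0.1957, so its p-value does not measure the spread of Satb1. The call against RBPJdel was lost with N1c_RBPJdel array 2 alone (-0.50). That against N1c was lost with the replicate block in the 2 groups alone (-0.75, 0.0836), which share only the replicate numbers 1 and 2.

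Foxo1 (cluster 10491962, chr3:52268337-52350109), the forkhead factor that Akt holds in the cytoplasm, acts mainly through its location, which these arrays do not show. Its transcript read 1858, 1954, 2161 and 1964 in control, 1860, 1924, 1652 and 1561 in N1c, and 1854, 1983, 1733 and 1630 in RBPJdel. N1c_RBPJdel read 1135, 1482 and 1287, below all other arrays, while the other 3 groups overlapped. Foxo1 fell in N1c_RBPJdel by 0.61 ± 0.11 against control (limma adjusted p = 0.00529), by 0.43 ± 0.11 against N1c (0.0240) and by 0.47 ± 0.11 against RBPJdel (0.0377). The call against N1c was lost after quantile normalization (-0.28, 0.0974), with the 2 groups alone (0.118), with N1c_RBPJdel array 2 alone (-0.23, 0.417), and without N1c_RBPJdel array 1 (0.122) or 3 (0.0525) or N1c array 1 (0.0709) or 2 (0.0795). The call against RBPJdel was lost after quantile normalization (-0.33, 0.0798), with the 2 groups alone (0.101), with array 2 alone (-0.28, 0.367), and without N1c_RBPJdel array 1 (0.152) or 3 (0.0642), RBPJdel arrays 1 (0.0912), 2 (0.105) or 3 (0.0826), or control arrays 2 (0.0516) or 3 (0.0533). The call against control was lost with array 2 alone (-0.42). It was also lost with the replicate number as a block in the 2 groups alone (-0.46, 0.165). That fit gave every member the same SE, 0.1957, so its p-value does not measure the spread of Foxo1. Such a block in 2 groups alone lost the calls against N1c (-0.54, 0.184) and RBPJdel (-0.52, 0.0699) too. Neither single mutant passed (-0.18 in N1c and -0.14 in RBPJdel).

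Foxp1 (cluster 10546661, chr6:98925342-99522746) competes with Foxo1 at shared sites and keeps naive T cells quiet. It read 1896, 1835, 1825 and 2382 in control, 1889, 1751, 1840 and 2042 in N1c, 2011, 1852, 1841 and 1546 in RBPJdel, and 1422, 1595 and 1548 in N1c_RBPJdel. N1c_RBPJdel lay below control and N1c and overlapped RBPJdel through RBPJdel array 4. The fall against control of 0.38 ± 0.11 was close to the threshold (limma adjusted p = 0.0492), and 17 of 25 alternatives lost it. Among them were quantile normalization (-0.24, 0.226), N1c_RBPJdel array 2 alone (-0.31, 0.345) and the leaving out of control array 5 (-0.28, 0.0945), the highest array of the group. Leaving out N1c_RBPJdel array 1 (-0.33, 0.164) or 3 (-0.39, 0.0826) lost it too, as did leaving out control array 2 (0.0860), 3 (0.0767) or 4 (0.0676), N1c array 1 (0.0592), 2 (0.0572) or 4 (0.0617), or RBPJdel array 1 (0.0565), 2 (0.0594) or 3 (0.0656).

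Ets1 (cluster 10584142, chr9:32636241-32757820) is among the most abundant Ets factors of resting T cells. Its intensity was 3064, 3045, 2967 and 2220 on control arrays 2, 3, 4 and 5 and 2962, 3158, 2802 and 2456 on the N1c arrays. RBPJdel read 2377, 2576, 2553 and 2546, and N1c_RBPJdel read 1954, 2015 and 1949, a spread of 0.03 (SD, log2). Active Notch1 alone left no detectable difference (0.02, 95% interval -0.21 to 0.24). Ets1 fell in N1c_RBPJdel by 0.51 ± 0.12 against control (limma adjusted p = 0.0157) and by 0.52 ± 0.12 against N1c (0.0105). Its change against RBPJdel, without overlap, was -0.35 (0.106). That change was called with the replicate number as a block over all groups (-0.36, 0.0224). The call against control was lost without N1c_RBPJdel array 1 (-0.50, 0.0565), control array 2 (0.0517) or control array 3 (0.0530), with the 2 groups alone (0.0722) and with N1c_RBPJdel array 2 alone (-0.47, 0.145). The call against N1c was lost with array 2 alone (-0.49, 0.129) and with the replicate block in the 2 groups alone (-0.62, 0.123).

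Klf2 (cluster 10572800, chr8:72319062-72321654) keeps T cells recirculating and is shut off quickly on activation. It read 821, 817, 1123 and 639 in control, 686, 586, 939 and 646 in N1c, 809, 745, 725 and 1022 in RBPJdel, and 609, 791 and 495 in N1c_RBPJdel. All groups overlapped, and array 4 was the highest in each of the 3 groups that have an array of that number. The changes against control were -0.25 ± 0.18 in N1c, -0.03 ± 0.18 in RBPJdel and -0.43 ± 0.20 in N1c_RBPJdel (limma adjusted p = 0.940, 0.989 and 0.179). The 95% interval in N1c, -0.63 to 0.14, includes falls as large as that of Bach2.

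**Figure D2:**
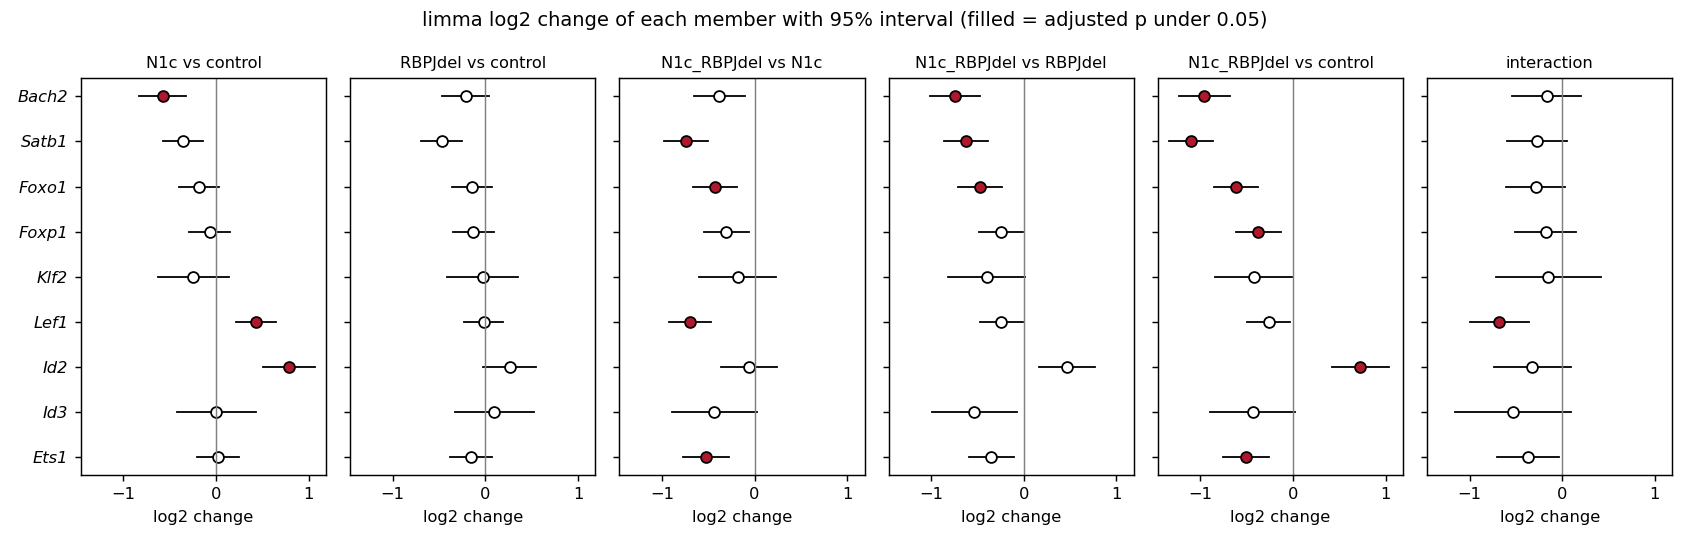
Log2 change (horizontal axis) of each member with its 95% interval in the 6 comparisons fitted with limma, filled where the adjusted p was under 0.05. Filled points number 3 in N1c against control, 0 in RBPJdel against control, 4, 3 and 6 in the comparisons of N1c_RBPJdel with N1c, RBPJdel and control, and 1, Lef1, in the interaction.

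The members were chosen with earlier results of these data known, so their counts are a description and carry no test. By count, 2 members rose and 1 fell in N1c against control, where 1.65% of all genes passed (0.937% higher and 0.714% lower). The groups did not overlap for 2 members that were higher and 2 that were lower, against 2.9% and 2.83% of all genes. In RBPJdel against control 0 of 9 members passed, 1 had an unadjusted p under 0.05 (Satb1), and 0.111% of all genes passed (0.0354% higher and 0.0759% lower), which is 22 genes, with 1331 at an unadjusted p under 0.05. In this comparison 1 member was lower and 0 were higher without overlap (3.08% and 2.81% of all genes). With the replicate number as a block over all groups, 494 genes were called in N1c against control, in place of 326, and 4 members, with Satb1 added. With this block in N1c and control alone Satb1 did not pass (limma adjusted p = 0.0901).

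The background was larger in N1c_RBPJdel. Against N1c 4 members fell and 0 rose, beside 9.23% of all genes called, 4.65% lower and 4.58% higher, and 5 members were lower and 0 higher without overlap (8.42% and 7.95% of all genes). Against RBPJdel 3 fell and 0 rose, beside 2.29% called, 0.967% lower and 1.32% higher, and 4 were lower and 1 higher without overlap (8.45% and 7.38%). Against control 5 fell and 1 rose, beside 8.9% called, 3.77% higher and 5.12% lower, and 5 were lower and 1 higher without overlap (9.57% and 9.11%). After quantile normalization the split of all genes against control turned from 745 higher and 1012 lower to 623 higher and 546 lower, and that of the members from 1 higher and 5 lower to 1 and 4. In the interaction 1 member passed, below 0, beside 0.84% of all genes (0.521% below 0 and 0.319% above). The members' median log2 change was -0.07 in N1c (-0.01 over all genes), -0.13 in RBPJdel (0.03), -0.43 in N1c_RBPJdel against N1c (0.02), -0.40 against RBPJdel (-0.01) and -0.43 against control (0.02). Among the 9876 genes at or above the median intensity, to which all members belong, the last 3 medians were -0.09, -0.09 and -0.10. The split of calls among these brighter genes lay further to the lower side than that of all genes: 839 lower and 253 higher in N1c_RBPJdel against N1c, 175 and 48 against RBPJdel, and 980 and 207 against control. The members' falls stand beside that split, and nothing particular to the members is read from their counts. These comparisons share arrays, so their values for a member are not independent of each other.

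**Figure D3:**
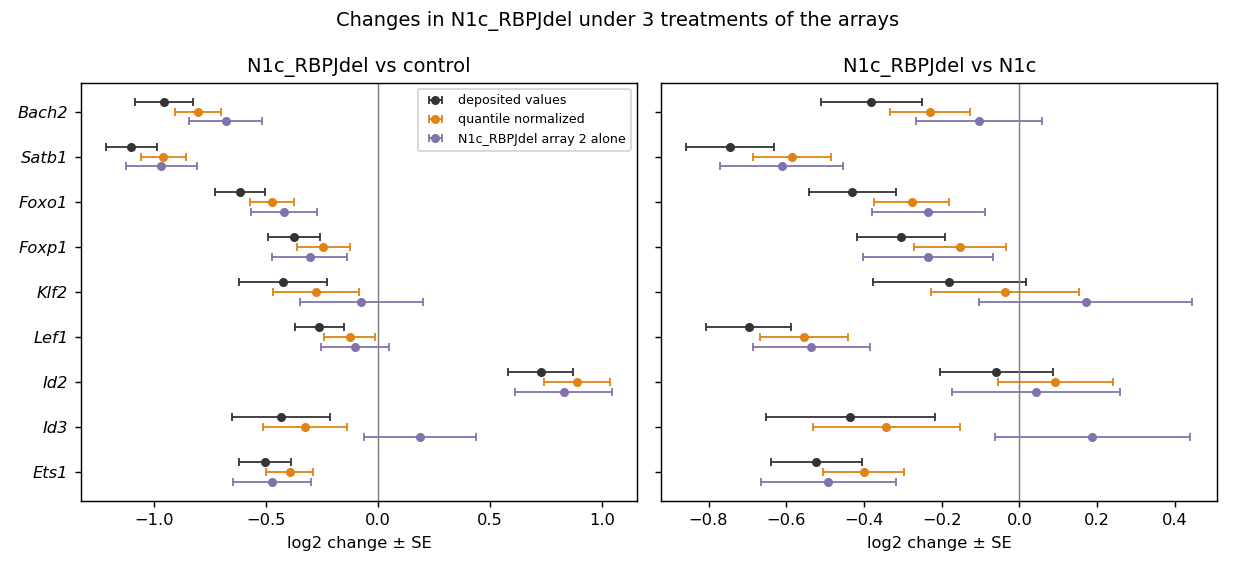
Log2 change ± SE (horizontal axis) of the 9 members in N1c_RBPJdel against control and against N1c, from the values as deposited, after quantile normalization, and with array 2 alone standing for N1c_RBPJdel. Satb1 and Bach2 stay lowest against control in all 3, Id2 stays highest, and Id3 moves to above 0 with array 2 alone.

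The direction of the called members in N1c_RBPJdel was the same under these treatments of the arrays, with smaller falls and a larger Id2 rise. After quantile normalization the changes against control were -0.96 for Satb1, -0.80 for Bach2, -0.47 for Foxo1, -0.39 for Ets1, -0.24 for Foxp1 and 0.89 for Id2. Array 2 of N1c_RBPJdel was chosen after seeing the data, for an upper quartile within the range of the other groups. In the fit with array weights it had the lowest weight of all arrays, 0.3112, beside 0.6184 and 0.5235 for arrays 1 and 3. Its upper quartile and its weight thus point in different directions. With array 2 alone, the changes against control were -0.97 for Satb1, -0.68 for Bach2 and 0.83 for Id2. That fit has 1 array in the group, takes its spread from the other 3 groups and assumes that the lone array varies like theirs, so its p-values do not show that a result stands. They were under the threshold for these 3 members and not for the others.

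Across the 15 arrays, which share their normalization and, for N1c_RBPJdel, their sorter, Bach2, Satb1 and Foxo1 had the most similar profiles of the members (Pearson r = 0.906 for Bach2 and Foxo1, 0.902 for Satb1 and Foxo1, 0.851 for Bach2 and Satb1). Satb1 and Ets1 followed with r = 0.811. Id2 had a negative r with 7 of the other members, down to -0.741 with Bach2, and a positive one with Lef1 (0.338). Lef1 and Bach2, which moved in opposite directions in N1c, had r = 0.107. These values describe the arrays and carry no test.

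The genes with the highest Pearson r to each member, among 9397 candidates and over the same 15 arrays, were named by rule, 3 for each. For Lef1 they were E2f3 (0.930), Slc9a9 (0.928) and Etv6 (0.920). E2f3, a cell cycle transcription factor, read 0.69 ± 0.12 higher in N1c than in control and 0.95 ± 0.13 lower in N1c_RBPJdel than in N1c on the log2 scale. For Id2 they were Lamp2 (0.851), Rras (0.850) and Ankrd55 (0.846), and for Bach2 Mtss1 (0.943), Pitpnc1 (0.939) and Zfp652 (0.938). Satb1 had Txndc16 (0.946), Ssh2 (0.945) and Ripor2 (0.925), and Foxo1 had Sipa1l1 (0.972), Dock8 (0.958) and Zzef1 (0.95). Ets1 had Rnf145 (0.953), Slc12a7 (0.949) and Hnrnpab (0.944), Foxp1 had Parp2 (0.917), Parp8 (0.907) and Tbc1d23 (0.897), and Id3 had Tmem185b (0.924), Fam53a (0.913) and Zdhhc5 (0.905). The genes nearest to Klf2 were Jund (0.936), an AP-1 subunit, Relt (0.886) and Rps19 (0.848).

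Genes that act with the members were read from lists of related genes, also chosen with earlier results of these data known. Of 9 measured genes known to be induced by Foxo1 or Klf2, 2 fell in N1c against control, beside 0.714% of all genes. S1pr1, the egress receptor downstream of Klf2, fell by 0.52 ± 0.11 (limma adjusted p = 0.0190), from a geometric mean of 2274 to 1583. Il7r, the interleukin 7 receptor, fell by 0.55 ± 0.11 (0.0105), from 2783 to 1904. In N1c_RBPJdel S1pr1 was at 1433, which was a fall of 0.67 ± 0.12 against control (0.00523) and a change of -0.14 against N1c that did not pass (0.483), with an interaction of -0.06 (0.911). Il7r was at 3556, which was a rise of 0.90 ± 0.12 against N1c (0.000130) and a change of 0.35 against control that did not pass (0.0681), with an interaction of 0.71 ± 0.16 (0.0459). Ccr7, another homing gene of resting T cells, read 3142, 3310, 3066 and 2979 in the 4 groups. The list's median change in N1c was -0.17, beside -0.01 over all genes.

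Of 20 measured quiescence and growth arrest genes, 0 passed in N1c against control and 2 had an unadjusted p under 0.05, with a list median of -0.06. In N1c_RBPJdel against N1c 4 fell and 0 rose, beside 4.65% of all genes lower and 4.58% higher. The list median was -0.16, beside 0.02 over all genes and -0.09 over those at or above the median intensity. Klf3, a repressor of the Krüppel-like family, fell by 0.58 ± 0.12, and Btg1, an antiproliferative factor, by 0.57 ± 0.11 (limma adjusted p = 0.00713 and 0.00496). Ikzf1, which encodes Ikaros, fell by 0.73 ± 0.13 and Zeb1 by 0.40 ± 0.11 (0.00252 and 0.0375). Foxo3 did not pass in any comparison (-0.22 in N1c and -0.29 in N1c_RBPJdel against control).

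Of 5 measured E proteins and other Id genes, Tcf12, which encodes the E protein HEB that Id2 and Id3 bind, rose in N1c from 1573 to 2495 (0.67 ± 0.09, limma adjusted p = 0.000253). It fell from N1c to N1c_RBPJdel by 0.87 ± 0.10 (2.11e-05) to 1363, with an interaction of -0.77 ± 0.13 (0.00711). The 4 others passed in no comparison with N1c. Among 11 relatives, partners and opponents of Bach2, 0 passed in N1c (2 with an unadjusted p under 0.05), and against control in N1c_RBPJdel Prdm1, which encodes the repressor Blimp-1, rose by 0.52 ± 0.12 (0.0154) from 186 to 266 while Bach1 fell by 0.34 ± 0.08 (0.0180). In N1c Prdm1 lay above control without overlap but did not pass (231, 0.278).

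Of 10 other Ets family factors, Etv6, a repressor, rose in N1c by 0.90 ± 0.16 (limma adjusted p = 0.00331) and fell from N1c to N1c_RBPJdel by 0.99 ± 0.17 (0.00175), with group means of 470, 877, 446 and 442 and an interaction of -0.91 ± 0.23 that did not pass (0.0771). Fli1 and Etv3 fell from N1c to N1c_RBPJdel by 0.33 ± 0.09 and 0.73 ± 0.15. Of 7 other forkhead, Tcf and special AT-rich factors, Foxn3, a forkhead repressor, fell in N1c_RBPJdel by 1.14 ± 0.13 against N1c (4.75e-05) and by 1.23 ± 0.13 against control (0.000156), and Foxk1 fell against control by 0.75 ± 0.15 (0.00718). No gene of this list passed in N1c against control, where 1 had an unadjusted p under 0.05.

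Effector and cell cycle genes were read from further lists. Of 19 effector Treg genes 4 rose in N1c and 0 fell, with a list median of 0.34. Of all genes 0.937% rose and 0.714% fell in this comparison. Il10 rose by 2.41 ± 0.39, Gzmb, a cytotoxic granule protease, by 1.93 ± 0.25, Itgae by 1.14 ± 0.14 and Ccr4 by 0.74 ± 0.14 (limma adjusted p = 0.00172, 0.000227, 0.000136 and 0.00813). From N1c to N1c_RBPJdel Il10, Gzmb, Itgae and Maf fell and 7 others rose, beside 4.65% of all genes lower and 4.58% higher. Among the 7 that rose were Klrg1, a marker of terminally differentiated Treg, by 0.99 ± 0.17 (limma adjusted p = 0.00163), Tigit by 0.99 ± 0.14 and Ccr8 by 0.96 ± 0.20. In N1c_RBPJdel against control 5 of the list were higher and 0 lower (median 0.28), beside 3.77% and 5.12% of all genes. Against RBPJdel 2 were higher and 0 lower (median 0.32), beside 1.32% and 0.967% of all genes. In RBPJdel against control only Cxcr3 of this list passed (1.22 ± 0.16, 0.00172). Of 27 cell cycle genes, Ube2c alone passed in N1c (1.18 ± 0.24, 0.0127), 16 had an unadjusted p under 0.05, as had 1621 of all 19752 genes, and the list median was 0.32. In RBPJdel against control the list median was 0.34, with 1 of 27 genes below 0, 7 at an unadjusted p under 0.05 and 0 called, so the higher median was not limited to N1c. From N1c to N1c_RBPJdel 7 of the 27 fell and 0 rose, with a median of -0.54, beside 4.65% of all genes lower and 4.58% higher. Among the 7 was Rrm2, the small subunit of ribonucleotide reductase, which fell by 1.34 ± 0.28 (limma adjusted p = 0.00803). Against RBPJdel all 27 were below 0, with a median of -0.49 and 0 called. Against control 0 of the 27 passed in N1c_RBPJdel, and 0 had an unadjusted p under 0.05.

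**Figure D4:**
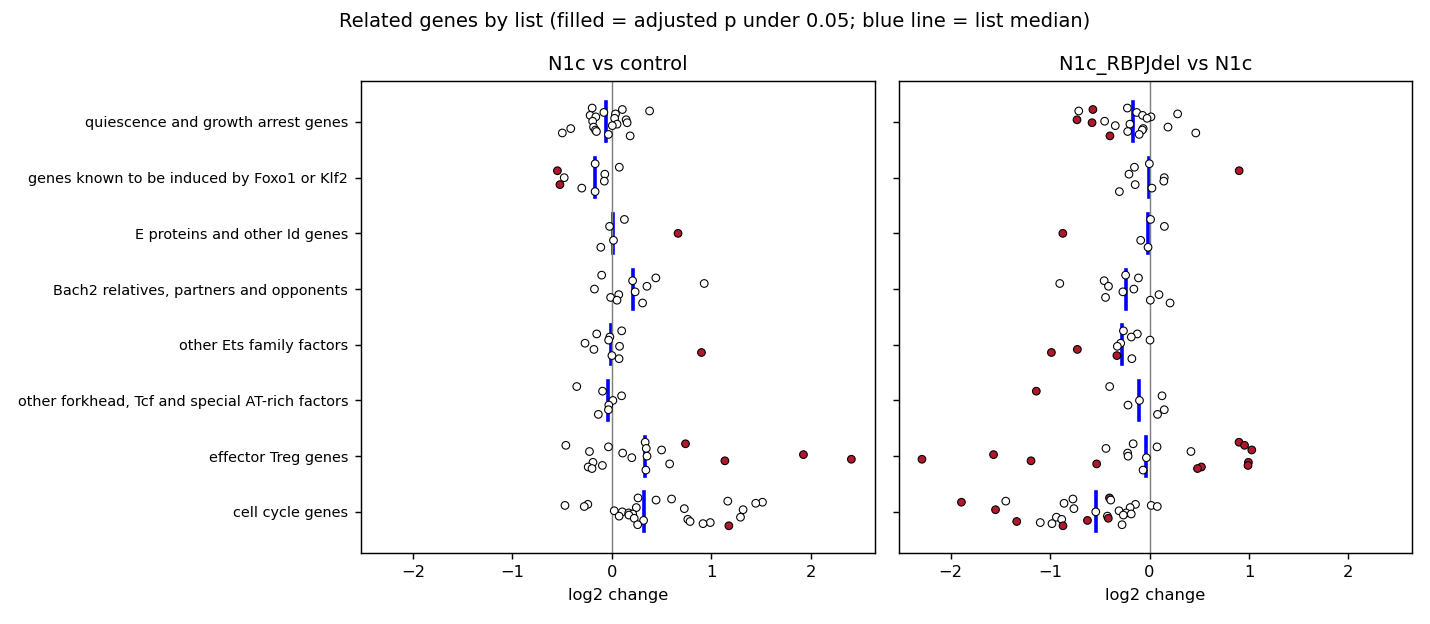
Log2 change (horizontal axis) of the measured genes of 8 related lists in N1c against control and in N1c_RBPJdel against N1c, with filled points for an adjusted p under 0.05 and a blue line at each list's median. The effector and cell cycle lists have medians of 0.34 and 0.32 in N1c against control, and the cell cycle list has a median of -0.54 in N1c_RBPJdel against N1c.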

How the data were processed

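Biotin-labelled Treg RNA was read on whole-transcript gene arrays of Affymetrix. The deposited table holds linear intensities from RMA. The submitters' processing notes name Affymetrix Power Tools as the authors' software; for its version and any filter the sources used here give nothing. Values were converted to log2. Of 24922 features, 21425 named 1 gene, 1399 several and 2098 none, per the platform annotation; for 921 genes with several features the brightest was kept, leaving 19752 genes, without a filter on low values. Correlations between arrays lay from 0.957 to 0.996. The number of arrays limits the precision.

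One mean per group was fitted over all 15 arrays in limma 3.58.1 (R 4.3.3; 11 residual and 6.15 prior degrees of freedom), tested on simulated data first, with 6 comparisons. Arrays are pools, and nothing says which mice each holds, so p-values measure the spread between these arrays. Same-numbered N1c and control arrays deviated together (r = 0.417, 0.341 and 0.497 over genes), and every one of these pairs was over 0.1. On that ground the numbers were taken to pair these 2 groups, with the block as an alternative and not in the main fit. Differently numbered arrays of these groups had r from -0.426 (N1c 2, control 5) to 0.371 (N1c 1, control 2). The correlations alone therefore do not establish the pairing. Same-numbered RBPJdel arrays had r = 0.166, 0.0711 and 0.417 with control and 0.112, 0.0815 and 0.457 with N1c, and N1c_RBPJdel arrays -0.12 to 0.237 with the others, each set with a pair under 0.1, so no pairing was assumed there. The block over all groups nevertheless links same-numbered arrays of those groups as well. N1c_RBPJdel and N1c share only the replicate numbers 1 and 2, so a block in these 2 groups alone rests on those pairs. Member coordinates and promoter windows are RefSeq's, on GRCm38.p6. Named genes are the members, the called genes of 8 related lists, 10 marker lists and the 3 genes most like each member. The members and lists were chosen with earlier results of these data known. Alternatives were quantile normalization, median centring, the mean of a gene's features, brighter genes only, array weights, a 2-group fit, the replicate block and leaving out each array; the use of N1c_RBPJdel array 2 alone was chosen after seeing the data.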

Additional observations from a re-analysis of the deposited data

Results flagged for a closer look

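Array 5 of control stood apart from the 3 others for Foxp1, at 2382, and for Ets1, at 2220, the former high and the latter low. For Ets1, RBPJdel array 1 stood apart at 2377, below its group. These are 3 flags in 27 tests of a gene in a group of 4 arrays, where chance gives about 1 in 20. The interaction term of Lef1 was -0.6782 on the log2 scale (limma adjusted p = 0.0410), a call lost in 12 of 23 alternatives. The term includes N1c_RBPJdel, in which sorter and genotype cannot be told apart.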

How the results depend on the processing

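Over all alternatives, no member's called change turned its direction. Members keeping their side of the threshold made up 202 of 216 combinations of member and alternative in N1c against control, 215 of 216 in RBPJdel against control, and 207, 206 and 200 of 225 in N1c_RBPJdel against N1c, RBPJdel and control. For the interaction the figure was 195 of 207. These figures include members that the main fit did not call, so they do not give the stability of the calls. The Lef1 call in the interaction was lost in 12 of 23 alternatives, and the Lef1 rise in N1c in 8 of 24. Foxp1 against control lost its call in 17 of 25, and Foxo1 against RBPJdel in 11 of 25. Id2 against control lost it in 0 of 24 in N1c and 0 of 25 in N1c_RBPJdel. Quantile normalization gave 1169 genes in N1c_RBPJdel against control and 0 members in the interaction. With brighter genes only, 1187 genes were called against N1c and 192 against RBPJdel, with fewer genes tested. Array weights gave 733 genes in N1c, 189 genes and 1 member in RBPJdel, and 257 genes in the interaction. Fits of 2 groups alone, with fewer arrays for the spread, gave 561 genes against N1c, 98 genes and 1 member against RBPJdel, and 406 genes against control. The replicate block gave 494 genes in N1c, 3699 against N1c, 2107 genes and 5 members against RBPJdel, 3767 against control and 632 in the interaction. As a block in 2 groups alone it gave 45 genes in RBPJdel. It gave 368 genes and 0 members against N1c, where only the replicate numbers 1 and 2 are shared. Against control it gave 955 genes, but every member had the same SE, 0.1957, so these p-values do not measure a gene's own spread. The Lef1 rise in N1c with this block was 0.41 (limma adjusted p = 0.0785). Same-numbered arrays of all groups had a median r of 0.139 (16 pairs), others -0.06 (68 pairs). With N1c_RBPJdel array 2 alone, 854 genes and 1 member were called against N1c, 226 and 0 against RBPJdel, 732 and 3 against control, and 0 members in the interaction. Except where the construction is named, the cause was not tested. Leaving out each array gave 217 to 383 genes and 1 to 3 members in N1c, 17 to 26 and 0 to 0 in RBPJdel, 903 to 3058 and 3 to 6 against N1c, 76 to 1890 and 1 to 4 against RBPJdel, 530 to 3088 and 4 to 7 against control, and 101 to 478 and 0 to 1 in the interaction. In the 3 comparisons of N1c_RBPJdel the lowest counts came without its array 1 and the highest without its array 2. Without control array 4 the count in N1c was 217. Without N1c array 1 or 2 that against N1c was 964 or 932. Without RBPJdel array 1, 2 or 3 that against RBPJdel was 121, 112 or 79, and without control array 3 it was 300. Without control array 2, 3 or 4 that against control was 743, 675 or 850. The interaction had 101, 102 and 101 genes without RBPJdel arrays 1, 2 and 3, and 478 without N1c_RBPJdel array 2.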
